A study of Mus musculus with 44 samples.

Results

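Expression of 9 genes of the intestinal crypt stem cell (Lgr5, Tnfrsf19, Rgmb, Olfm4, Smoc2, Ascl2, Cdca7, Rgcc and Slc12a2) was followed day by day in mouse small-intestinal organoids. The genes were chosen by name, as genes known from such cells, out of the 21126 genes that the deposited count tables hold between them. The choice was made with earlier results of these data known. All 9 were in both tables. Crypt stem cells sit at the base of the crypt among Paneth cells, divide throughout life and give rise to every other epithelial cell type of the villus. They are kept by Wnt signals, which R-spondins amplify through the receptors LGR4 and LGR5, and by Notch signals from neighbouring cells, while BMP signals drive their progeny to differentiate. RANKL, a cytokine of the TNF family, acts on this epithelium to induce M cells, the antigen-sampling cells above lymphoid follicles.

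The RANKL+CSRM617 arm received 100 ng/mL RANKL with 40 µM CSRM617, which inhibits ONECUT2, a transcription factor, and was sampled on days 0 to 6 with 2 plates of sorted cells per day. The RANKL arm received 100 ng/mL RANKL alone and was sampled on days 0 to 9 with 3 plates per day. Both arms came from a single organoid line (line26) of a female mouse of genotype Lgr5GFPDTR/+, so that 1 of the 2 Lgr5 alleles carried the knock-in of GFP and the diphtheria toxin receptor in every plate; whether transcripts of that allele were counted as Lgr5 is not given in the sources used here. Both were grown in ENR medium (EGF, Noggin and R-spondin 1), kept for 3 days with 3 µM CHIR99021, a GSK3 inhibitor that activates Wnt signalling, and 1.5 mM valproic acid, and returned to ENR for 1 day before RANKL. The medium was renewed every 3 days during RANKL, and the hour of sampling relative to a renewal is not given. Day 0 plates carry their arm's label, and whether those of RANKL+CSRM617 had received any agent is not stated. This bears on each change from day 0 in that arm and on each difference between the arms in that change. Each arm is a separate series of plates with its own count table, of 21099 genes (RANKL) and 9257 genes (RANKL+CSRM617). CSRM617 therefore cannot be told apart from plate series in comparisons between the arms. Later days have no untreated plates here, so a change from day 0 joins RANKL with time in culture and with the end of the CHIR99021 and valproic acid treatment. Whether the plates of a day hold separate cultures is not stated; p-values therefore reflect plate-to-plate spread alone, and that spread may be technical.

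After wells with under 1000 UMIs (unique molecular identifiers, each 1 counted molecule) were removed, the RANKL+CSRM617 arm had 1673 cells, 24 to 223 per plate, with a median of 1800 to 3685 UMIs per cell. The RANKL arm had 6558 cells, 26 to 282 per plate, with a median of 2968 to 6960. The smallest plates were both day 4 plates of RANKL+CSRM617 (43 and 24 cells) and, with RANKL, plate 2 of day 0 (26 cells) and plates 1 and 3 of day 4 (32 and 45 cells). All counts of a plate were summed, and levels are given as normalised CPM, UMIs scaled to a common plate total with TMM factors. In a plate's sum, fewer expressing cells and less RNA per cell cannot be told apart. Shares of cells with a UMI are given further on and do not fully tell them apart either.

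Promoter sequence is shown for 4 members that moved apart on the first day of RANKL: Olfm4, Ascl2 and Tnfrsf19, which were higher on day 1 than on day 0, and Rgcc, which was lower. Each window runs from 250 bases before to 50 bases after a transcript start and comes from RefSeq on GRCm38.p6, written 5′ to 3′ on the gene's strand. It lies at chr14:80000052-80000351 (plus strand) for Olfm4, at chr7:142969215-142969514 (minus strand) for Ascl2, at chr14:61037938-61038237 (minus strand, the second of 2 Tnfrsf19 windows) and at chr14:79301586-79301885 (minus strand) for Rgcc. Capitals mark a match to the motif of the Wnt effectors TCF and LEF, searched on both strands as CTTTGAA or CTTTGAT, with the further forms CTTTGTA or else CTTTGTT.
Olfm4: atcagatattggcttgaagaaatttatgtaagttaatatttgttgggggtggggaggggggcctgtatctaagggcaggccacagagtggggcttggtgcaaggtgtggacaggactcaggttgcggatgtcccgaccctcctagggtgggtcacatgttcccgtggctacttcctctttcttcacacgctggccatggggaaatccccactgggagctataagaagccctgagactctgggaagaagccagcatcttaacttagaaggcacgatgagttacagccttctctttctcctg
Ascl2: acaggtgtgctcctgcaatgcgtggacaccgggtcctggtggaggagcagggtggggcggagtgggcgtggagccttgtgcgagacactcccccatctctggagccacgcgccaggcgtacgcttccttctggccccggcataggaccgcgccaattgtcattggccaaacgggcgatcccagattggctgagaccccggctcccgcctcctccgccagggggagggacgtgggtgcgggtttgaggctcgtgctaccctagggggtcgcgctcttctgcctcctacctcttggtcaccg
Tnfrsf19: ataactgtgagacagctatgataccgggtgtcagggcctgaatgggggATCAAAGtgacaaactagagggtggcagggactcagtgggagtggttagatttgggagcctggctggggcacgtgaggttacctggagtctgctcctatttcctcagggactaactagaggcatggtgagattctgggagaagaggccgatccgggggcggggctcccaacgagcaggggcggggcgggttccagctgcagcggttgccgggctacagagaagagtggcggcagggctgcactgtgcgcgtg
Rgcc: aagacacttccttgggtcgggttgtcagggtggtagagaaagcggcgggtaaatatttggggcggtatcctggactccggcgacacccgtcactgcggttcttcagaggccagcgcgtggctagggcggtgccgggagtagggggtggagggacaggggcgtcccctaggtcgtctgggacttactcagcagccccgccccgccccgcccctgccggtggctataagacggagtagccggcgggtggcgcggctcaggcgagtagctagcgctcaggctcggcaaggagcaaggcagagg

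The RefSeq table held 9 windows for 6 of the members (those 4, Rgmb and Cdca7), and 1 of the 9, the Tnfrsf19 window shown, had a match, which begins at position -202 relative to the start, on the minus strand of the window. Of all 32851 mouse windows of this length, 5544 (16.9%) hold one of these motifs. A match is a description of the letters and not of binding, and its absence says only that these letters are not in the window.

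With RANKL alone the 9 genes split on days 1 to 3 and then rose together. On day 1, 4 members were higher than on day 0 (Olfm4, Ascl2, Tnfrsf19 and Slc12a2) and 3 were lower (Lgr5, Smoc2 and Rgcc), by edgeR's quasi-likelihood test at an adjusted p of 0.05; 23.8% of all 10000 genes tested were called in that comparison. On day 2, Lgr5, Olfm4 and Rgcc were lower than on day 1, against 0.590% of all genes called lower; that of Rgcc was not called with each cell thinned to 1000 UMIs (adjusted p = 0.388). On day 3, 3 were higher (Ascl2, Tnfrsf19 and Slc12a2) and 5 lower (Lgr5, Smoc2, Rgcc, Rgmb and Cdca7), against 20.4% of all genes called. Between day 3 and day 4 all 9 rose, in a step in which 4.32% of all genes were called higher. The members' median log2 fold change was 2.11 in that step and the median of all genes was 0.00. On day 4, 7 were higher than on day 0 and 1 lower, against 21.5% of all genes called. On days 5 to 9 the members called numbered 7, 8, 8, 7 and 7, all higher but Rgcc on day 6, beside 34.4%, 38.3%, 33.0%, 35.1% and 36.4% of all genes called, and Rgcc was the member that was not called higher on any day.

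**Figure D1:**
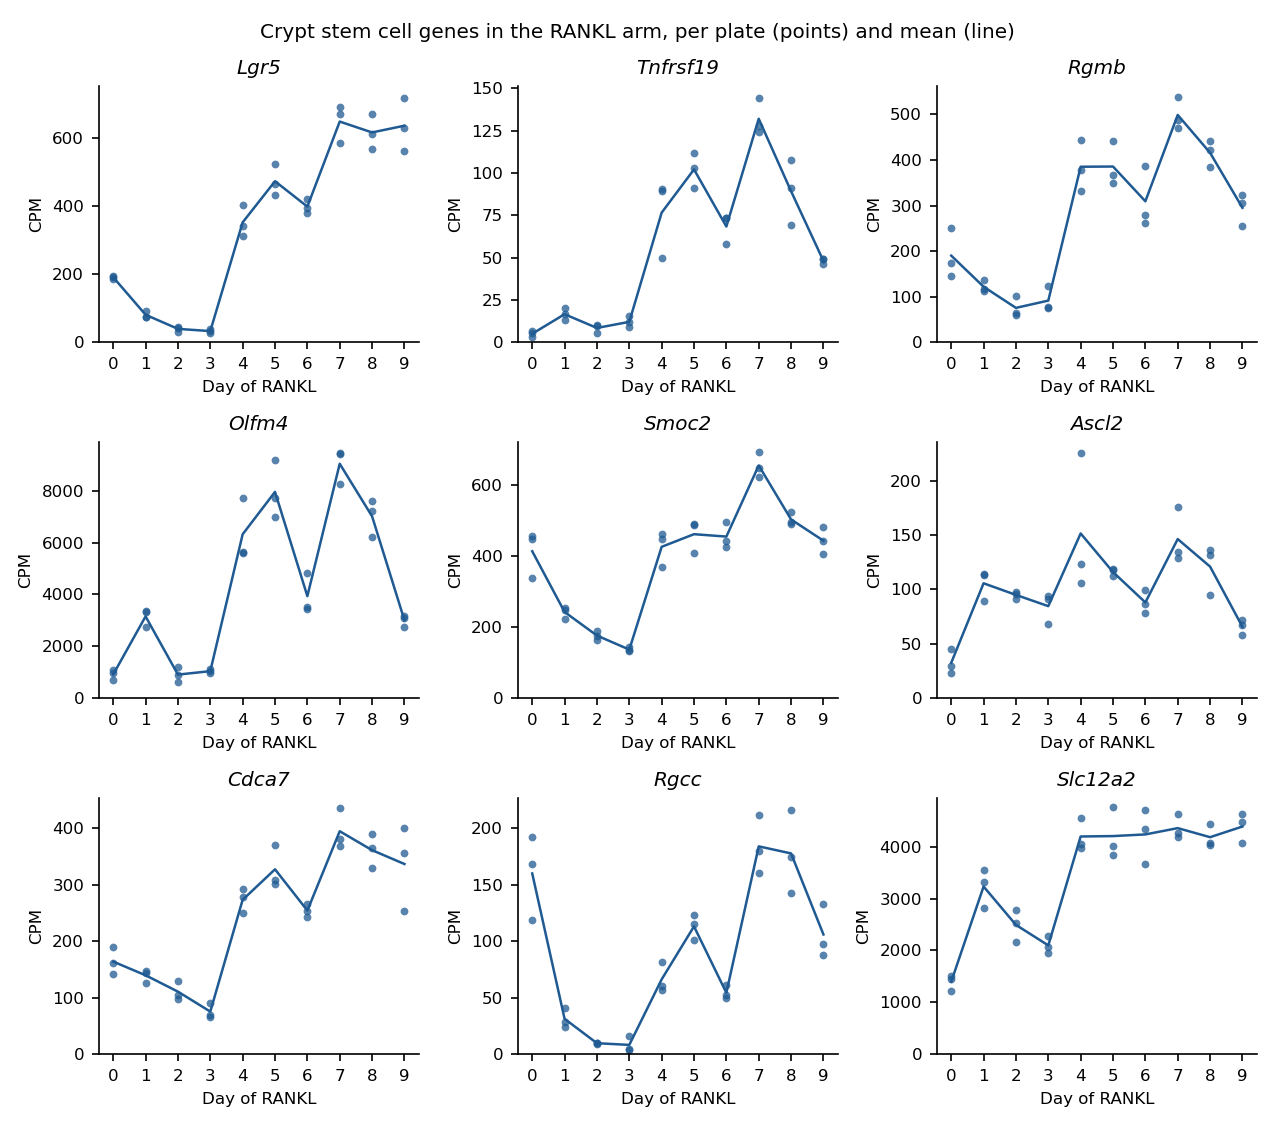
Normalised CPM (vertical axes, linear and from 0) of the 9 genes on days 0 to 9 of RANKL; points are plates, 3 per day, and lines join the means. Lgr5, Smoc2, Rgmb, Cdca7 and Rgcc pass through a trough on days 2 and 3, Olfm4 has separate peaks on day 1, day 5 and day 7, and Slc12a2 stays level from day 4 on.

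Lgr5 (chromosome 10, 115450311 to 115587780, GRCm38) encodes the R-spondin receptor that marks crypt base stem cells. In the RANKL plates it had 194, 186 and 190.4 CPM on day 0, 74.8, 91.0 and 74.6 CPM on day 1, 43.3, 30.7 and 42.2 CPM on day 2, and 38.0, 26.8 and 31.9 CPM on day 3. It had 312, 340.2 and 401 CPM on day 4, 419, 379.8 and 393 CPM on day 6, 584, 668 and 689 CPM on day 7 and 628, 717 and 559.9 CPM on day 9. No plate of days 1 to 3 reached the lowest day 0 plate, and no plate of days 4 to 9 fell to the highest. The log2 fold change was -2.56 ± 0.16 for day 3 over day 0 (SE, edgeR adjusted p = 2.92e-14), 3.44 ± 0.16 for day 4 over day 3 (adjusted p = 4.29e-17) and 1.73 ± 0.14 for day 9 over day 0 (adjusted p = 9.48e-12). The step from day 3 to day 4 was the largest rise of any member at any daily step of this arm.

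Tnfrsf19 (TROY; chromosome 14, 60963875 to 61046490), a receptor of the TNF receptor family that is transcribed in crypt stem cells, was counted at low levels, with 10 UMIs in all on day 0 of RANKL and 475 on day 7. It had 5.52, 6.42 and 2.86 CPM on day 0, 19.95, 12.99 and 16.5 CPM on day 1, 8.82, 11.8 and 15.2 CPM on day 3, 90.7, 89.3 and 49.8 CPM on day 4 and 128, 124 and 144 CPM on day 7. All plates of days 4 to 9 lay above all plates of days 0 to 3. Its log2 fold change was 4.88 ± 0.31 for day 7 over day 0 (SE, edgeR adjusted p = 3.18e-14) and 1.90 ± 0.41 for day 1 over day 0 (adjusted p = 0.000539). Its early calls depended on few molecules. With each cell thinned to 1000 UMIs the day 1 change was 0.33 (adjusted p = 0.845). The day 3 change of 1.43 ± 0.43 (adjusted p = 0.0151) became -1.88 (adjusted p = 0.257) with that thinning, 1.07 (adjusted p = 0.168) without plate 3 of day 0 and 1.21 (adjusted p = 0.0771) without plate 3 of day 3.

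Rgmb (chromosome 17, 15803188 to 15831039) encodes a co-receptor for BMP ligands that is tethered to the cell surface. It had 175, 250.2 and 145 CPM on day 0, 74.0, 123 and 76.2 CPM on day 3, 333, 445 and 378 CPM on day 4 and 539, 469.6 and 489 CPM on day 7. Day 3 plates lay below and day 4 and day 7 plates above every day 0 plate. Rgmb changed by -0.95 ± 0.21 on the log2 scale on day 3 (SE, edgeR adjusted p = 0.000723) and 1.51 ± 0.20 on day 7 (adjusted p = 1.53e-07), both over day 0. On day 9 it had 307, 324 and 255 CPM, and the change of 0.75 ± 0.20 (adjusted p = 0.00304) was 0.58 (adjusted p = 0.0556) without plate 3 of day 0.

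Olfm4 (chromosome 14, 79984081 to 80023139), a secreted glycoprotein and a Notch-dependent mark of small-intestinal stem cells, was called at 6 of the 9 daily steps, rising at 3 and falling at 3. It had 686, 1091 and 961 CPM on day 0, 2750, 3328 and 3372 CPM on day 1, 1199, 886 and 631 CPM on day 2 and 1029, 1131 and 956 CPM on day 3. It had 5622, 5614 and 7718 CPM on day 4, 9178, 6974 and 7707 CPM on day 5, 4819, 3445 and 3530 CPM on day 6, 9436, 8253 and 9420 CPM on day 7 and 2746, 3165 and 3097 CPM on day 9. Day 2 and day 3 plates overlapped those of day 0, and the plates of every other day listed lay above them. Olfm4 changed on the log2 scale by 1.81 ± 0.19 for day 1 over day 0 (SE, edgeR adjusted p = 2.48e-09) and -1.80 ± 0.18 for day 2 over day 1 (adjusted p = 2.63e-08). It was 2.60 ± 0.19 for day 4 over day 3 (adjusted p = 2.65e-12) and -1.22 ± 0.18 for day 9 over day 8 (adjusted p = 7.58e-05), a step at which Lgr5 changed by 0.05 ± 0.13 (adjusted p = 0.907).

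Smoc2 (chromosome 17, 14279506 to 14404790) encodes a secreted calcium-binding matrix protein. It had 337, 456 and 447 CPM on day 0, 143, 132 and 134 CPM on day 3, 448, 368 and 461 CPM on day 4 and 693, 623 and 648 CPM on day 7. The plates of day 3 lay below and those of day 7 above all day 0 plates, while day 4 overlapped day 0. The log2 fold change over day 0 was -1.57 ± 0.13 on day 3 (SE, edgeR adjusted p = 1.73e-11), 0.05 ± 0.13 on day 4 (adjusted p = 0.851), 0.69 ± 0.13 on day 7 (adjusted p = 4.66e-05) and 0.12 ± 0.13 on day 9 (adjusted p = 0.474). Of the days after day 3, day 7 was the one on which Smoc2 was called above day 0.

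Ascl2 (chromosome 7, 142966829 to 142969264), a basic helix-loop-helix transcription factor that specifies crypt stem cells downstream of Wnt, did not share the trough. It had 23, 44.9 and 29.5 CPM on day 0, 114, 113 and 89.7 CPM on day 1, 94.3, 91.6 and 67.9 CPM on day 3, 106, 123 and 226 CPM on day 4 and 57.8, 71.8 and 67.2 CPM on day 9. Every later plate lay above every day 0 plate. Relative to day 0, the log2 fold change was 1.92 ± 0.24 on day 1 (SE, edgeR adjusted p = 1.57e-07), 1.59 ± 0.25 on day 3 (adjusted p = 5.36e-06) and 1.24 ± 0.26 on day 9 (adjusted p = 0.000275). With each cell thinned to 1000 UMIs the day 3 change was 1.16 (adjusted p = 0.0576) and the day 9 change 0.81 (adjusted p = 0.192). The rise from day 3 to day 4, 0.83 ± 0.21 (adjusted p = 0.00758), was 0.47 (adjusted p = 0.227) without plate 3 of day 4, which held 45 cells.

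Of the members tied to cell division, Cdca7 (chromosome 2, 72476159 to 72486893), a nuclear protein that works with the chromatin remodeller HELLS, followed Lgr5. It had 161, 141 and 189 CPM on day 0, 90.9, 66.3 and 68.6 CPM on day 3 and 435, 369 and 380.4 CPM on day 7. Cdca7 changed by -1.17 ± 0.17 on day 3 over day 0 on the log2 scale (SE, edgeR adjusted p = 1.57e-06) and 1.22 ± 0.16 on day 7 (adjusted p = 1.23e-07), with no overlap of plates on either day. Rgcc (chromosome 14, 79288756 to 79301645), a regulator of the cell cycle that binds CDK1, had the deepest trough. It had 119, 193 and 169 CPM on day 0, 16.3, 3.95 and 4.16 CPM on day 3, 60.5, 81.6 and 56.4 CPM on day 4 and 212, 160.4 and 180 CPM on day 7. Its day 7 plates overlapped those of day 0, unlike the day 7 plates of the other 8 members. Rgcc changed by 3.05 ± 0.36 for day 4 over day 3 (adjusted p = 3.56e-07) and 0.28 ± 0.21 for day 7 over day 0 (adjusted p = 0.332).

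Slc12a2 (chromosome 18, 57878678 to 57946821), the sodium, potassium and chloride cotransporter NKCC1 of the basolateral membrane, rose in 2 steps. Between them, all plates of days 2 and 3 lay below those of day 1. It had 1515, 1457 and 1218 CPM on day 0, 2821, 3554 and 3329 CPM on day 1, 2063, 2279 and 1953 CPM on day 3 and 4564, 3981 and 4056 CPM on day 4. From day 5 to day 9 its plates ran from 3668 to 4766 CPM. The log2 fold change was 1.22 ± 0.13 for day 1 over day 0 (SE, edgeR adjusted p = 4.99e-09) and 1.00 ± 0.13 for day 4 over day 3 (adjusted p = 1.37e-06), and no later daily step was called.

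The daily steps show where the members moved as a block. At 7 over 6, 8 of 9 rose, against 3.01% of all genes called higher, with the largest step in Rgcc (1.76 ± 0.22 SE, edgeR adjusted p = 1.15e-06) and none in Slc12a2 (0.04 ± 0.12, adjusted p = 0.905). The calls of Ascl2 and Rgmb in that step rested on single plates: the rise of Ascl2, 0.73 (adjusted p = 0.0091), was 0.56 (adjusted p = 0.117) without plate 3 of day 7 and 0.64 (adjusted p = 0.0737) without plate 1 of day 6. That of Rgmb, 0.69 (adjusted p = 0.0106), was 0.58 (adjusted p = 0.0947) without plate 3 and 0.61 (adjusted p = 0.0763) without plate 2 of day 6, and 0.63 (adjusted p = 0.0568) without plate 1 of day 7. Thinning of each cell to 1000 UMIs ended the calls of Ascl2 (0.49, adjusted p = 0.422) and Smoc2 (0.51, adjusted p = 0.0559) there. At 6 over 5, Olfm4 and Rgcc fell by 1.02 ± 0.18 (adjusted p = 0.000373) and 1.06 ± 0.23 (adjusted p = 0.00376) on the log2 scale and the other 7 were not called, against 4.33% of all genes called. At 9 over 8, Olfm4, Ascl2, Tnfrsf19 and Rgcc were called lower, against 2.02% of all genes; the Rgcc call was lost when any of 4 plates was left out (adjusted p = 0.0829 to 0.196), and the Tnfrsf19 change of -0.88 (adjusted p = 0.00703) was -0.71 (adjusted p = 0.0809) without plate 3 of day 8. The Ascl2 change of -0.88 (adjusted p = 0.0073) was -0.86 (adjusted p = 0.155) with thinned cells. Over all 9 daily steps, 34 of 81 member tests passed, 21 of them higher, against 6.02% of all gene tests.

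**Figure D2:**
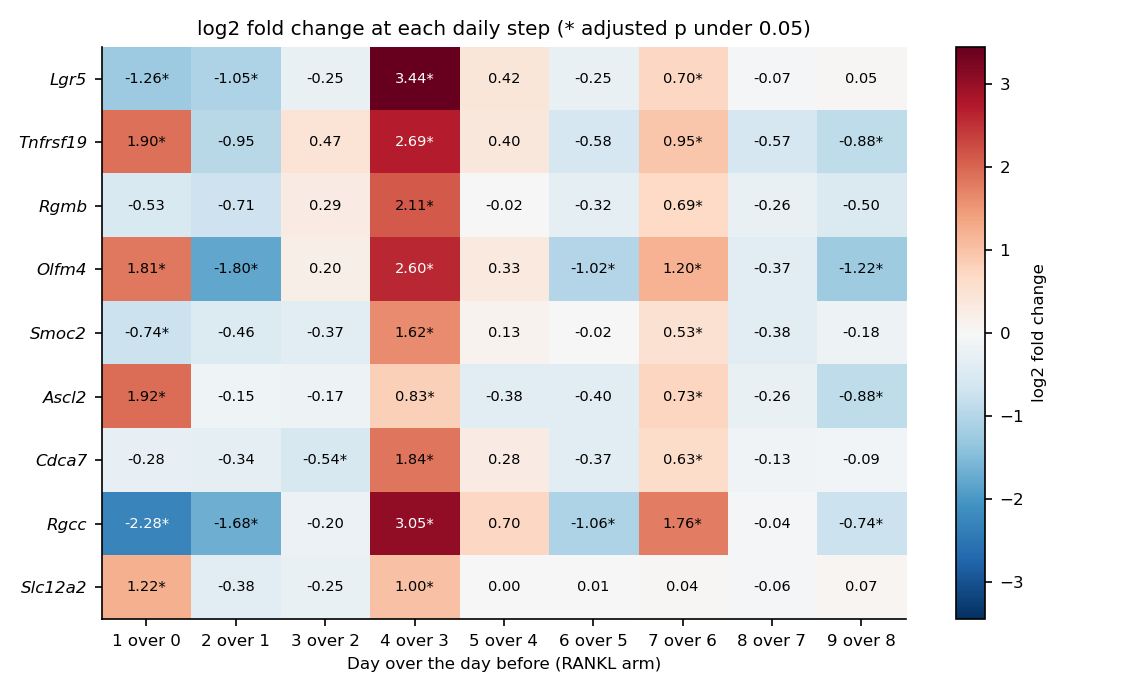
Log2 fold change of each gene (rows) at each daily step of the RANKL arm (columns, later day over earlier day); red is higher and blue lower on the later day, and asterisks mark an edgeR adjusted p under 0.05. The step of day 4 over day 3 is called higher in all 9 genes and that of day 7 over day 6 in 8, while the step of day 1 over day 0 holds rises and falls.

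Likeness of time course was measured as Pearson's r of the mean log2 CPM over the 10 RANKL days, as a description with no test, since all genes share the same 30 plates. Among the members, Cdca7 (r = 0.979), Rgmb (0.966), Smoc2 (0.966) and Rgcc (0.905) were closest to Lgr5. Tnfrsf19 (0.812), Olfm4 (0.790) and Slc12a2 (0.673) were less alike, and Ascl2 (0.193) was the least. Of 5447 genes with a mean log2 CPM of at least 5, the most like Lgr5 were Stra6l, a retinol transport receptor (0.9945), Cdca7, the DNA repair gene Brca2 (0.977), the chromatin protein gene Hmga2 (0.971) and Rnf43, a ubiquitin ligase that removes Wnt receptors (0.969). Those most like Olfm4 were Ilf2 (0.954), Tnfrsf19 (0.9535), the water channel Aqp4 (0.953), Nudt5 (0.942) and the DNA repair kinase Prkdc (0.939).

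The share of cells with a UMI is a second view of the same counts, which at this depth falls with either the number of expressing cells or the level per cell. Each cell was thinned to 1000 UMIs, because cells differed in depth. An Lgr5 UMI was found in 16.3% ± 2.64 of RANKL cells on day 0, 7.21% ± 1.42 on day 1, 2.43% ± 0.443 on day 2, 3.33% ± 0.957 on day 3, 28.9% ± 14.5 on day 4 and 46.3% ± 1.61 on day 7; errors are the SD over 3 plates. Without thinning the shares were 47.4% on day 0, 11.5% on day 3 and 83.3% on day 7. Cells with a UMI held 1.07 to 1.51 Lgr5 UMIs per 1000 on average over the days, a mean that cannot lie under 1 and says little at so few UMIs. On days 1 to 3, cells with a UMI of Spib, a transcription factor gene of M cells, averaged 0.0368 ± 0.0109 Lgr5 UMIs per 1000 and cells without one 0.0546 ± 0.0377 (SD, 9 plates). Spib UMIs were sought in the unthinned counts. Lgr5 was higher in the cells with a Spib UMI in 5 of the 9 plates and lower in 4. Whether a share this low reflects expression was not tested. No order is read between days 2 and 3.

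The share of cells with an Olfm4 UMI (mean ± SD of 3 plates) started at 31.1% ± 9.71 on day 0, reached 64.8% ± 5.27 on day 1, was back at 37.5% ± 3.65 on day 3, peaked at 94.4% ± 0.519 on day 7 and stood at 69.5% ± 4.65 on day 9. The mean in cells with a UMI was 3.33 Olfm4 UMIs per 1000 on day 0, 5.204 on day 1, 2.99 on day 3, 10.4 on day 7 and 4.65 on day 9. Rgcc was found in 15.8% ± 6.66 of cells on day 0, 0.629% ± 0.582 on day 3 and 16.6% ± 3.12 on day 7. An Ascl2 UMI was found in 5.90% ± 4.96 of cells on day 0 and 6.84% ± 2.55 on day 3. The rise in the plate sums of Ascl2 was thus not detectable in these mean shares at a depth of 1000 UMIs. The day 0 plates ran from 2.18% to 11.5%, the highest being plate 2 with 26 cells. With cells thinned to 2000 UMIs the mean Ascl2 shares were 3.36% on day 0 and 10.55% on day 3. Without thinning, which leaves cells at unequal depth, the Ascl2 shares were 10.9% on day 0 and 23.3% on day 3.

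**Figure D3:**
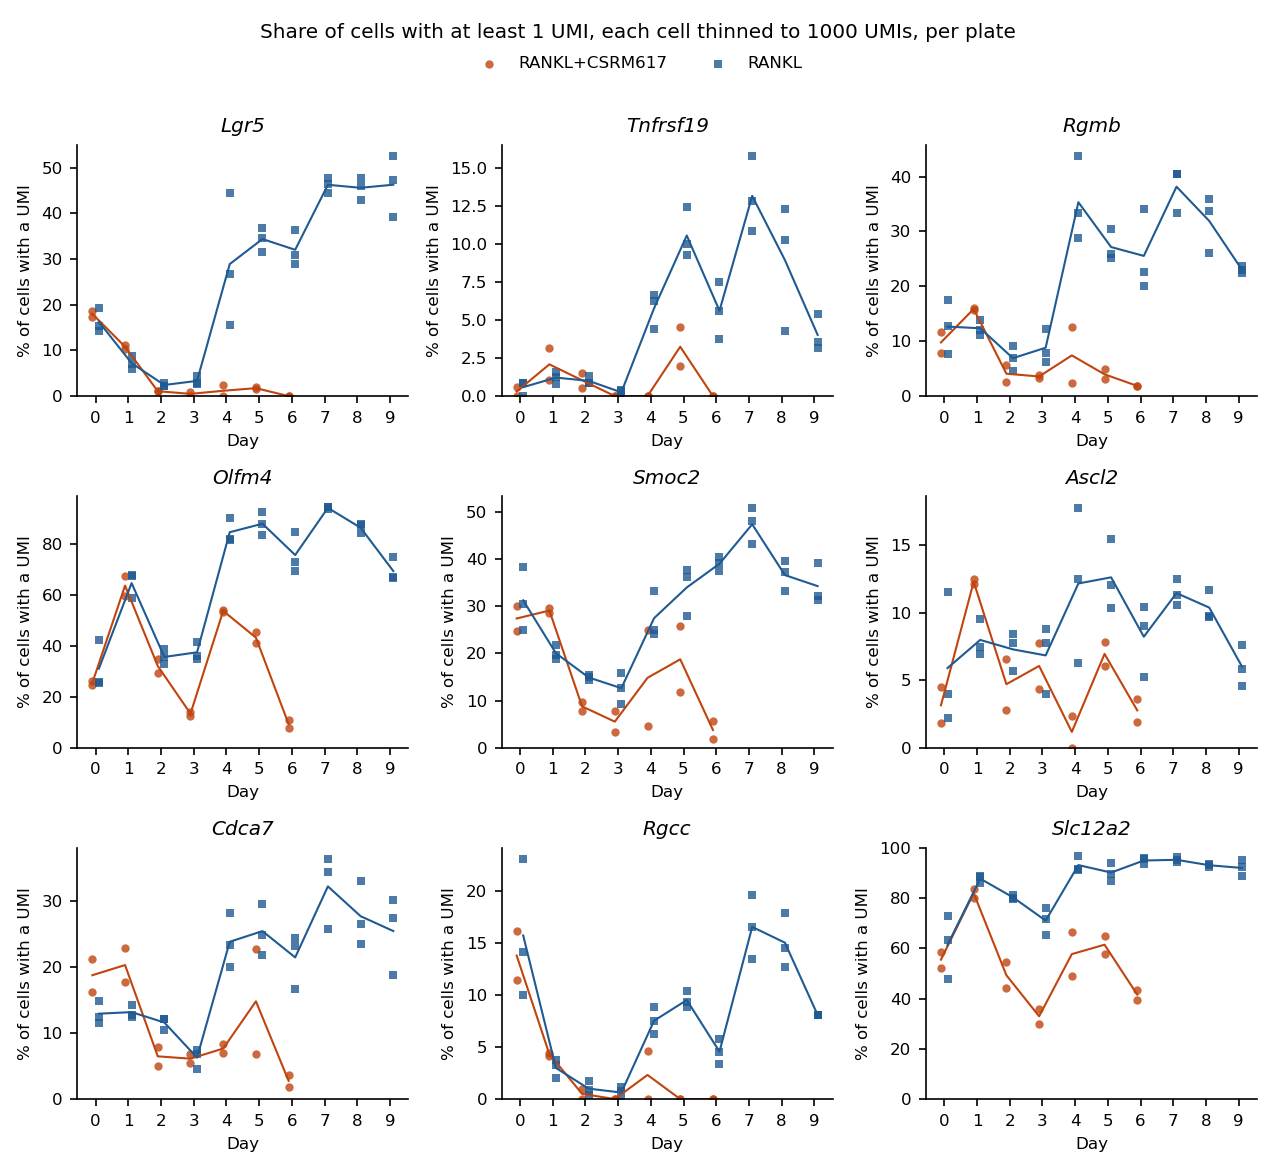
Share of cells with at least 1 UMI of each gene (vertical axes, percent) by day after each cell was thinned to 1000 UMIs; points are plates, lines join the means, with RANKL+CSRM617 in orange (days 0 to 6, 2 plates a day) and RANKL in blue (days 0 to 9, 3 plates a day). The mean Lgr5 share stays at or under 1.74% from day 2 on with RANKL+CSRM617, while with RANKL it reaches 46.3% on day 7.

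Whether the members sat in the same cells was examined on days 4 to 9 of RANKL, in the 17 plates with at least 10 cells on each side, by setting cells with an Lgr5 UMI against cells without one; this comparison was chosen with earlier results known and is a description. Cells with an Lgr5 UMI averaged 7.87 ± 3.11 Olfm4 UMIs per 1000, against 5.68 ± 2.15 in cells without (SD over plates), and were higher in 16 of 17 plates. Slc12a2 was higher in cells with an Lgr5 UMI in 17 of 17 plates (4.98 ± 0.505 against 3.95 ± 0.422 UMIs per 1000). Smoc2, Cdca7 and Rgcc were higher in 15 of 17 plates each, Ascl2 in 14, Rgmb in 13 and Tnfrsf19 in 12. The differences were modest: cells with no Lgr5 UMI at this depth held all 8 other members too, and many of them can have held Lgr5 RNA that was not sampled. On days 1 to 3 of RANKL, in 4 such plates, Olfm4 and Cdca7 were higher with an Lgr5 UMI in all 4. Smoc2, Rgmb and Slc12a2 were higher in 3, Ascl2 and Rgcc in 2 and Tnfrsf19 in 0. These 4 plates held 65 cells with an Lgr5 UMI, and Tnfrsf19 averaged 0.0109 UMIs per 1000 in cells without one. At so few UMIs the count of 0 does not set Tnfrsf19 apart from Lgr5. In 2 plates of days 1 to 3 of RANKL+CSRM617, Olfm4, Rgmb, Slc12a2 and Rgcc were higher in both. Smoc2 and Tnfrsf19 were higher in 1, and Ascl2 and Cdca7 in 0. These 2 plates held 45 cells with an Lgr5 UMI, so no order of the members is read from them.

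**Figure D4:**
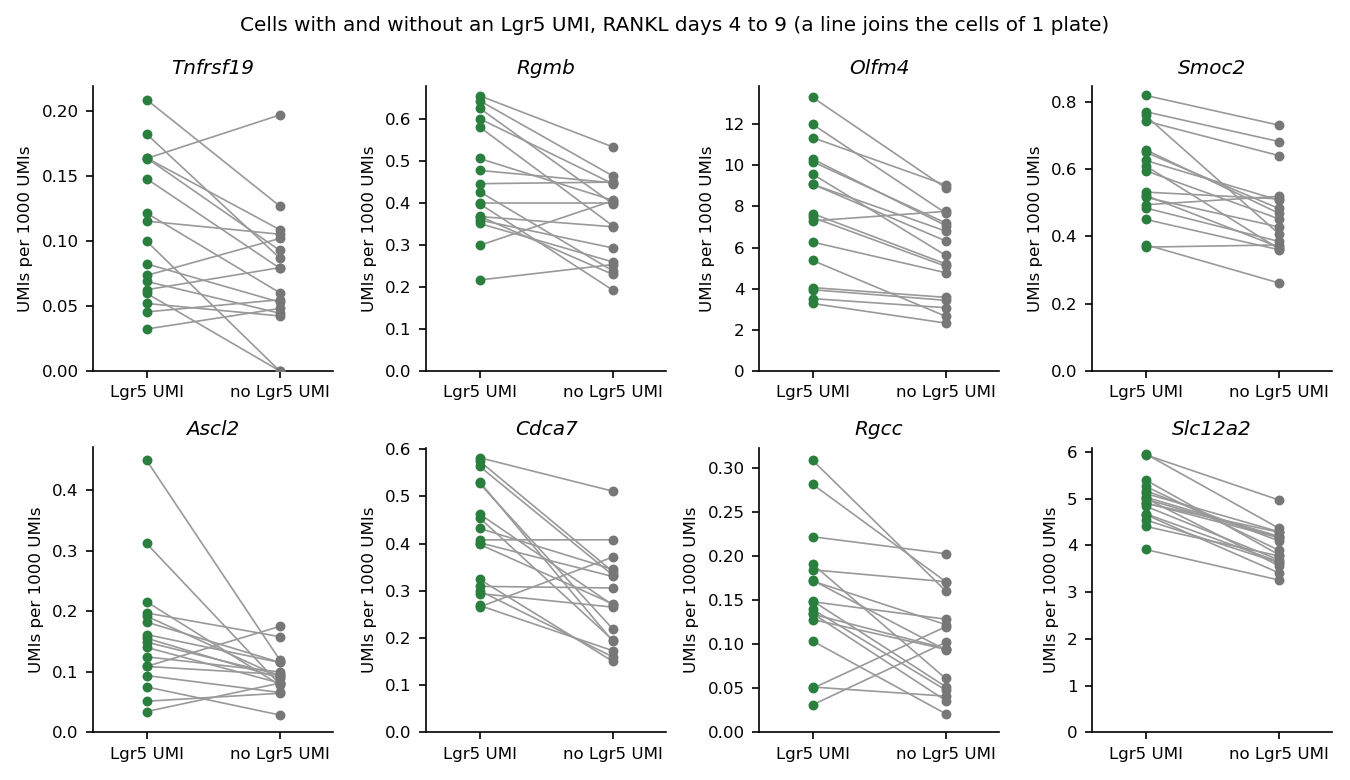
Mean UMIs per 1000 UMIs (vertical axes, linear and from 0) of the 8 other genes in cells with an Lgr5 UMI (left, green) and cells without one (right, grey) on days 4 to 9 of RANKL; a line joins both values of a plate. The lines fall to the right in 17 of 17 plates for Slc12a2 and in 16 of 17 for Olfm4, with wide overlap between plates.

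On days 1 to 3, the days of the trough, cells were also split by G2/M genes (3 or more UMIs per 1000) and by Spib. The Spib split took any Spib UMI in the unthinned counts, so deeper cells had more chance to fall on its Spib side. The part of depth in that split was not tested. Slc12a2 was higher in G2/M cells than in other cells in 9 of 9 RANKL plates (3.56 ± 0.384 against 2.18 ± 0.466 UMIs per 1000, SD over plates), as were Smoc2 (0.260 ± 0.0729 against 0.159 ± 0.0448) and Rgmb (0.146 ± 0.0540 against 0.0817 ± 0.0262). Ascl2 and Olfm4 were higher in G2/M cells in 8 of 9 plates, Rgcc in 7, and Lgr5 and Cdca7 in 5. Tnfrsf19 was higher in G2/M cells in 3 plates and lower in 5 (0.00511 ± 0.00766 against 0.0119 ± 0.0105 UMIs per 1000). In cells with a Spib UMI, Olfm4 was lower in 9 of 9 plates (1.52 ± 1.19 against 2.04 ± 1.27 UMIs per 1000), as was Slc12a2 (2.28 ± 0.502 against 2.73 ± 0.527). Smoc2, Rgmb and Cdca7 were lower in cells with a Spib UMI in 8 of 9 plates each. Lgr5 and Ascl2 were each higher in 5 of 9 plates and lower in 4. Rgcc was higher in 3 and lower in 5, and Tnfrsf19 was higher in 2 and lower in 5. These splits were chosen with earlier results known.

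Marker genes of other cell types moved over the same days, in sums of raw CPM over each list. In the RANKL arm the 14 M cell genes averaged 638 CPM on day 0, 4504, 5709 and 5092 CPM on days 1 to 3, 1831 CPM on day 4 and 759 CPM on day 7. The 13 enterocyte genes averaged 10080 CPM on day 0, 4672, 3712 and 11920 CPM on days 1 to 3, 4732 CPM on day 4 and 1631 CPM on day 7. The M cell sum was above day 0 on all of days 1 to 3. The enterocyte sum was below it on days 1 and 2, and its mean was above it on day 3. The enterocyte plates of day 3 (10940 to 13290 CPM) overlapped those of day 0 (9555 to 11050 CPM). The 16 S phase genes averaged 2374 CPM on day 0, 2539, 1716 and 1178 CPM on days 1 to 3, 2591 CPM on day 4 and 3211 CPM on day 7. The 16 G2/M genes averaged 1656 CPM on day 0, 3351, 2708 and 1976 CPM on days 1 to 3, 2123 CPM on day 4 and 2679 CPM on day 7. The S phase sum was below day 0 on days 2 and 3 but not on day 1, and the mean G2/M sum was above day 0 on all 3 days. On day 3 the G2/M plates ran from 1292 to 2357 CPM and overlapped the 1506 to 1808 CPM of day 0. The part of these cell types in the members' changes was not tested.

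With RANKL+CSRM617 the members were called in both directions on day 1 and mostly lower on later days. Olfm4 or Ascl2 was called higher on some later days, in calls that were lost when single plates were left out. On day 1 over day 0, 3 of the 8 members tested were higher (Olfm4, Ascl2 and Slc12a2) and 2 lower (Lgr5 and Rgcc), against 4.37% of all 6499 genes called. Tnfrsf19, with 6 UMIs on day 0 and 2 on day 6, did not pass the filter on low counts in this arm. On day 2 over day 1 all 8 tested members were lower, against 2.49% of all genes called lower. The Ascl2 call in that step (-1.30, adjusted p = 0.0302) was lost with any of the 4 plates left out (adjusted p = 0.0893 to 0.181), with DESeq2 (0.107) and with thinned cells (0.0591). The Cdca7 call was lost without plate 2 of day 2 (-1.24, adjusted p = 0.091). The Rgcc call was lost with thinned cells (adjusted p = 0.0782). On days 2, 3, 4 and 5 over day 0, 5, 6, 2 and 4 members were called lower, beside 4.31%, 7.96%, 2.40% and 3.71% of all genes, and 0, 1, 1 and 1 higher. The rises were those of Ascl2 on days 3 and 5 and of Olfm4 on day 4. The shares of all genes called higher are not given here, so no weight is put on the counts of rises. The Ascl2 rises of day 3 (1.47, adjusted p = 0.0347) and day 5 (1.66, adjusted p = 0.0359) were each lost with any of their 4 plates left out (adjusted p = 0.0527 to 0.256 and 0.0812 to 0.169). The Rgmb fall of day 2 (-1.68) was lost without plate 2 of that day (adjusted p = 0.0608). That of day 3 (-1.59) was lost without plate 2 of day 0 (adjusted p = 0.0532) or plate 2 of day 3 (0.0867). The Rgmb fall of day 5 (-1.38, adjusted p = 0.0409) was lost without plate 1 (adjusted p = 0.0577) or plate 2 (0.154) of day 0 or plate 1 of day 5 (0.618). With DESeq2 its adjusted p was 0.119. On day 6 over day 0, 6 of 8 were lower (Lgr5, Rgcc, Smoc2, Cdca7, Olfm4 and Rgmb) and none higher, against 2.95% of all genes called lower, and the members' median log2 fold change was -2.45 beside a median of -0.04 for all genes.

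In the RANKL+CSRM617 plates Lgr5 had 234 and 222 CPM on day 0, 124 and 123 CPM on day 1, 9.31 and 14.1 CPM on day 2, 6.88 and 6.07 CPM on day 3, 32.5 and 0 CPM on day 4, 8.498 and 6.30 CPM on day 5, and 0 in both plates of day 6. The log2 fold change over day 0 was -4.17 ± 0.35 on day 2 (SE, edgeR adjusted p = 1.71e-08), -5.07 ± 0.46 on day 3 (adjusted p = 2.68e-08) and -4.81 ± 0.47 on day 5 (adjusted p = 2.46e-07). Day 6, with 0 UMIs, was at least 19.7-fold lower than day 0 with 235 UMIs, taking 3 counts over the group as the floor. The day 1 fall of 0.88 on the log2 scale (adjusted p = 0.0495) was not called with any of the 4 plates of days 0 and 1 left out (adjusted p = 0.148 to 0.35). After thinning to 1000 UMIs, 0 of 108 cells of day 6 had an Lgr5 UMI, which allows a share of up to 2.78% of cells with a UMI at this depth. This sets no limit on cells that express Lgr5.

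Rgcc had 137 and 188 CPM on day 0 and 66.8 and 40.2 CPM on day 1 of RANKL+CSRM617, and no day from 2 to 6 held more than 3 Rgcc UMIs. Its day 1 change over day 0, -1.54 ± 0.34 (SE, edgeR adjusted p = 0.00797), was -1.34 (adjusted p = 0.125) without plate 2 of day 0 and -1.26 (adjusted p = 0.166) without plate 2 of day 1. With DESeq2 it was -1.61 (adjusted p = 0.062). On day 3 it had 2 UMIs, a ratio to day 0 of 0.0201 (95% counting interval 0.00241 to 0.0738). On day 5 and day 6 it had 0 UMIs, at least 26.7-fold and at least 13.4-fold below day 0. Smoc2 had 406 and 388 CPM on day 0, 37.9 and 57.7 CPM on day 3, 138 and 291 CPM on day 4 and 58.6 and 17.6 CPM on day 6, with a log2 fold change of -3.35 ± 0.43 for day 6 over day 0 (SE, edgeR adjusted p = 8.84e-06). Cdca7 had 260.0 and 313 CPM on day 0, 219 and 117 CPM on day 4 and 33.5 and 35.2 CPM on day 6, with -3.04 ± 0.48 for day 6 over day 0 (adjusted p = 0.000138). For both genes, all plates of day 6 lay below all plates of day 0.

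Olfm4 kept more of the RANKL time course in this arm than Lgr5. It had 1180.0 and 1404 CPM on day 0, 6447 and 5504 CPM on day 1, 866 and 753 CPM on day 2, 685 and 337 CPM on day 3, 2710 and 4309 CPM on day 4, 1173 and 1801 CPM on day 5 and 193 and 519.7 CPM on day 6. Day 1 and day 4 plates lay above and day 2, 3 and 6 plates below those of day 0. The log2 fold change over day 0 was 2.21 ± 0.34 on day 1 (SE, edgeR adjusted p = 0.000203), 1.43 ± 0.34 on day 4 (adjusted p = 0.0117) and -1.86 ± 0.37 on day 6 (adjusted p = 0.00195). The day 4 plates held few cells, and that change was 1.04 (adjusted p = 0.16) without plate 2 of day 4 and 1.28 (adjusted p = 0.12) without plate 1 of day 0. The day 6 change was -1.31 (adjusted p = 0.0903) without plate 1 of day 6 and -1.19 (adjusted p = 0.134) in wells with at least 2000 UMIs. On day 4, the day of the Olfm4 rise, Lgr5 stood at -3.32 ± 0.52 over day 0 (adjusted p = 0.000262), from 4 UMIs that were all in plate 1.

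Ascl2 had 31.1 and 18.2 CPM on day 0, 139 and 137 CPM on day 1, 62.0 and 82.0 CPM on day 3 and 16.8 and 52.9 CPM on day 6 of RANKL+CSRM617. It was 2.40 ± 0.41 higher on day 1 than on day 0 on the log2 scale (SE, edgeR adjusted p = 0.000761), while the day 6 plates overlapped those of day 0 (0.41 ± 0.73, adjusted p = 0.811). Slc12a2 had 1080 and 1004 CPM on day 6, against 1141 and 1563 CPM on day 0, a log2 fold change of -0.37 ± 0.23 (adjusted p = 0.377). Its rise on day 1, 1.10 ± 0.22 (adjusted p = 0.00345), was 0.89 (adjusted p = 0.13) without plate 1 of day 0 and 1.00 (adjusted p = 0.0577) without plate 2 of day 1. Rgmb had 33.5 and 35.2 CPM on day 6, against 103 and 136 CPM on day 0; the change of -1.76 ± 0.54 (adjusted p = 0.0451) was lost with any of the 4 plates left out (adjusted p = 0.0541 to 0.261).

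The arms were then compared on the same day, over the genes in both tables, with CPM scaled over both arms. Arm and plate series coincide in these comparisons. On day 0, 1 of 9 members differed, against 9.82% of all 8766 genes: Cdca7 had 273 and 329.7 CPM in RANKL+CSRM617 plates and 156, 144 and 180 CPM in RANKL plates (log2 ratio 0.87 ± 0.21 SE, edgeR adjusted p = 0.0043), which became 0.73 (adjusted p = 0.0936) without plate 2 of RANKL+CSRM617. On day 1, 5 members were higher with RANKL+CSRM617 (Lgr5, Olfm4, Smoc2, Cdca7 and Rgcc) by 0.65 to 1.05 on the log2 scale, against 3.78% of all genes called higher, and all 5 calls were lost without plate 1 of that arm (adjusted p = 0.0773 to 0.634). From day 2 on no member was higher. The number called lower with RANKL+CSRM617 was 3 on day 2, 4 on day 3, 4 on day 4, 8 on day 5 and 8 on day 6, beside 7.10%, 6.87%, 3.24%, 6.51% and 8.05% of all genes on those days.

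On day 6, Lgr5 had 0 UMIs in both RANKL+CSRM617 plates and 402, 365 and 379 CPM in the RANKL plates, at least 36.9-fold lower with RANKL+CSRM617. Olfm4 had 202 and 532 CPM with RANKL+CSRM617, against 4617, 3306 and 3403 CPM with RANKL, a log2 ratio of -3.37 ± 0.34 (SE, edgeR adjusted p = 1.98e-09). Smoc2 had 61.3 and 18.02 CPM, against 424, 408 and 478 CPM (-3.45 ± 0.35, adjusted p = 3.07e-09), in that order of arms. For these genes the arms did not overlap.

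Slc12a2 was lower with RANKL+CSRM617 on every day from day 2 to day 6. On day 6 it had 1130 and 1027 CPM with RANKL+CSRM617 and 4505, 3520 and 4194 CPM with RANKL (-1.92 ± 0.19 SE, edgeR adjusted p = 9.94e-10). Tnfrsf19 had 2 UMIs in the day 6 plates of RANKL+CSRM617 and 221 in those of RANKL, a ratio of 0.106 (95% counting interval 0.0127 to 0.387, edgeR adjusted p = 0.00543). That call was lost without plate 1 (adjusted p = 0.075) or plate 2 (adjusted p = 0.0604) of RANKL+CSRM617. Ascl2 had 17.5 and 54.1 CPM with RANKL+CSRM617 and 75.3, 95.4 and 83.1 CPM with RANKL on day 6, and it was the member not called (-1.24 ± 0.55, adjusted p = 0.117), although these plates did not overlap.

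**Figure D5:**
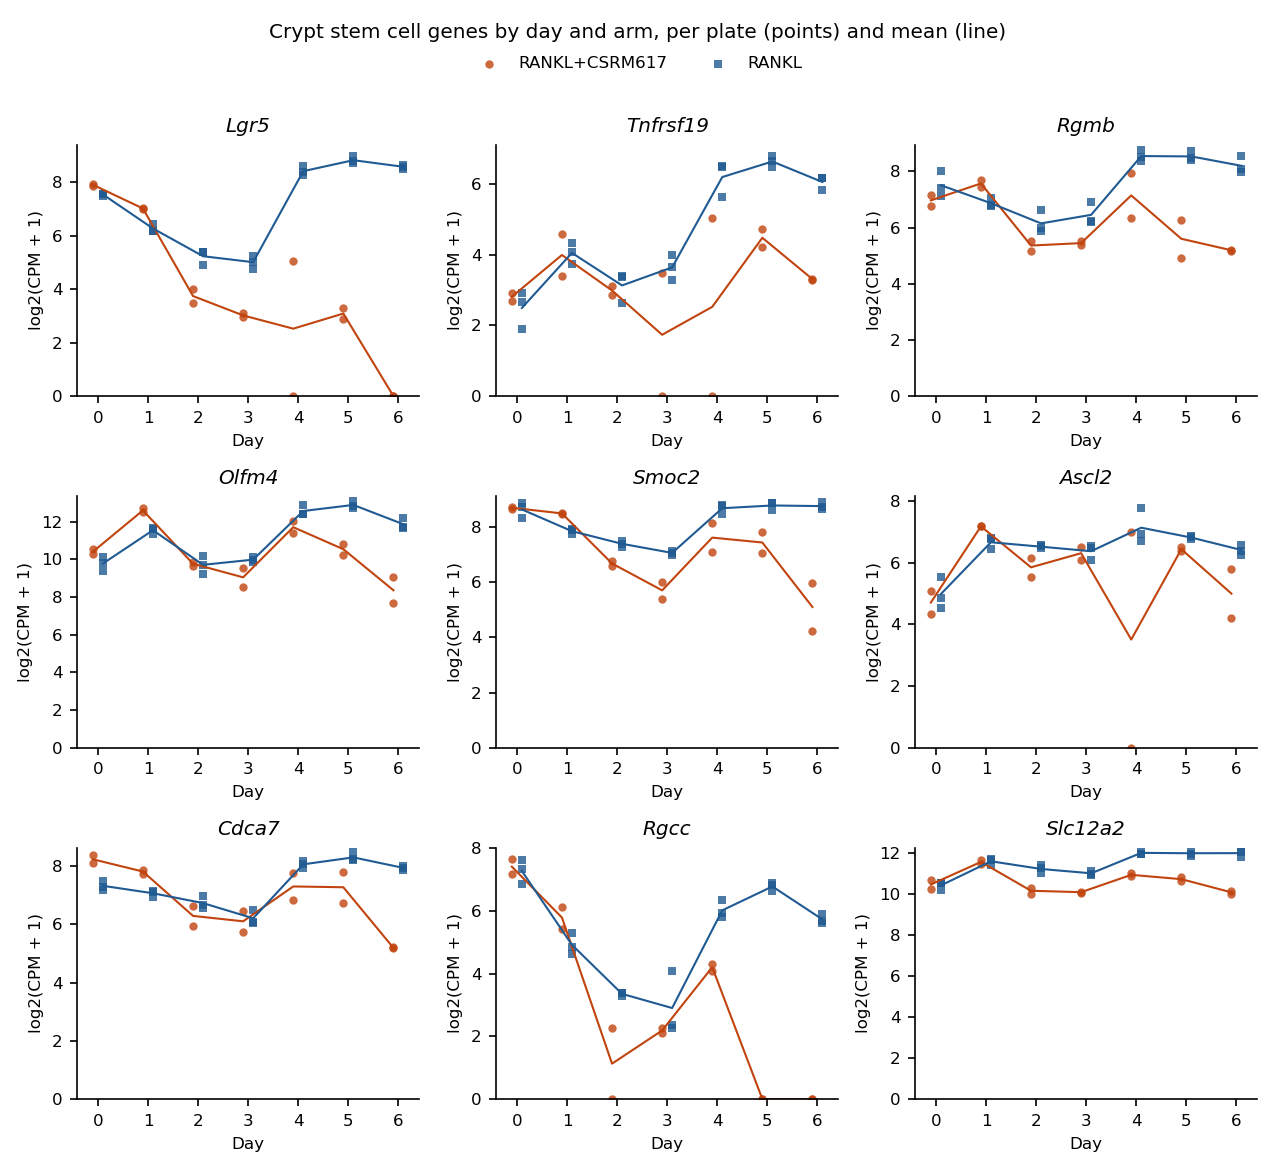
Log2 of normalised CPM plus 1 (vertical axes, from 0) of the 9 genes on days 0 to 6, with RANKL+CSRM617 plates in orange (2 a day) and RANKL plates in blue (3 a day); lines join the means. From day 4 on the blue plates of Lgr5 lie above all orange plates, with both orange plates at 0 on day 6, whereas Ascl2 was not called between the arms on any of these days.

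The difference between the arms in the change from day 0 (RANKL+CSRM617 minus RANKL, an interaction term) was called for 0, 3, 4, 2, 7 and 7 members on days 1 to 6. All of them were lower with RANKL+CSRM617, beside 0.0570%, 1.14%, 1.64%, 0.354%, 1.04% and 4.24% of all genes called lower. Lgr5 differed by -1.82 ± 0.36 on day 2 (SE, edgeR adjusted p = 0.0028), -4.31 ± 0.46 on day 4 (adjusted p = 3.17e-07) and -6.17 ± 0.41 on day 5 (adjusted p = 5.86e-13); the day 2 value was -1.55 (adjusted p = 0.417) with each cell thinned to 1000 UMIs. On day 6, Olfm4 differed by -3.99 ± 0.43 (adjusted p = 1.54e-08), Cdca7 by -3.65 ± 0.46 (adjusted p = 4.12e-07) and Smoc2 by -3.52 ± 0.41 (adjusted p = 1.05e-07). Slc12a2 was called on each of days 2 to 6 and differed by -1.98 ± 0.24 on day 6 (adjusted p = 3.36e-07). Its calls on days 2 to 4 were each lost without plate 2 of day 0 of RANKL+CSRM617 (-0.90, -0.78 and -0.91, adjusted p = 0.0677 to 0.133). They were also lost without plate 2 of day 2 (-0.99, adjusted p = 0.0605), plate 2 of day 3 (-0.99, adjusted p = 0.0573) and plate 1 (-1.24, adjusted p = 0.0604) or plate 2 (-1.08, adjusted p = 0.0791) of day 4 of that arm. Without plate 1 of day 5 of that arm, the day 5 differences of Cdca7 (-1.36, adjusted p = 0.0578), Rgmb (-1.81, adjusted p = 0.157) and Smoc2 (-1.08, adjusted p = 0.162) were not called.

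Ascl2 and Tnfrsf19 were not called in the comparison of changes on any day. On day 6 the difference was -1.27 ± 0.71 for Ascl2 (SE, edgeR adjusted p = 0.271) and -3.39 ± 1.17 for Tnfrsf19 (adjusted p = 0.0532), whose count in RANKL+CSRM617 was too low to place it.

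The shares of cells gave the same order of arms on day 6, with each cell thinned to 1000 UMIs. Olfm4 was found in 9.23% ± 2.38 of cells with RANKL+CSRM617 (SD, n = 2 plates) and 75.8% ± 8.12 with RANKL (n = 3 plates). In cells with a UMI it averaged 2.96 UMIs per 1000 with RANKL+CSRM617 and 5.44 with RANKL. Slc12a2 was found in 41.6% ± 2.84 of cells with RANKL+CSRM617 and 95.04% ± 1.13 with RANKL, and Cdca7 in 2.76% ± 1.24 and 21.4% ± 4.18 of cells in the same order. No plates of the arms overlapped in these shares.

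Marker sums of other cell types and of the cell cycle differed between the arms on the same day, each as raw CPM within its own table. On day 6, the G2/M genes summed to 451 and 536 CPM in the RANKL+CSRM617 plates (15 genes in that table) and to 2672 to 3318 CPM in the RANKL plates (16 genes). The S phase genes summed to 265 and 644 CPM with RANKL+CSRM617 and to 1799 to 2285 CPM with RANKL. The 7 Paneth genes summed to 3193 and 4553 CPM with RANKL+CSRM617 and to 411 to 703 CPM with RANKL, and the 13 enterocyte genes to 5361 and 5566 CPM and 1389 to 1697 CPM. The M cell genes summed to 4094 and 6352 CPM with RANKL+CSRM617 (11 genes) and to 1499 to 1869 CPM with RANKL (14 genes). Their part in the lower level of the members was not tested.

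A list of 31 other crypt stem and Wnt genes, 27 of them tested, moved with the members in part. Between day 3 and day 4 of RANKL, 13 of the 27 rose and none fell, against 4.32% of all genes called higher, with a median log2 fold change of 0.61 beside 0.00 for all genes. The largest rises were those of Soat1 (1.42 ± 0.21 SE, edgeR adjusted p = 1.5e-05), Lrig1, a feedback inhibitor of ErbB receptors (1.24 ± 0.22, adjusted p = 0.000228), Ephb3, a receptor that positions cells along the crypt (1.17 ± 0.23, adjusted p = 0.000708), and Rnf43 (1.15 ± 0.23, adjusted p = 0.00105). On day 3 over day 0 of RANKL, 8 of 27 were higher, led by the RNA-binding protein gene Mex3a (2.01 ± 0.33, adjusted p = 1.36e-05), and 4 lower, led by Zbtb38 (-1.61 ± 0.19, adjusted p = 3.35e-08) and Ephb2 (-1.29 ± 0.16, adjusted p = 5.57e-08). In that comparison 20.4% of all genes were called. In the comparison of changes on day 6, 11 of 27 were lower with RANKL+CSRM617 and none higher, against 4.24% of all genes called lower. They were led by Soat1 (-3.80 ± 0.54, adjusted p = 3.99e-06), Mex3a (-3.25 ± 0.74, adjusted p = 0.0023), Ephb3 (-2.56 ± 0.77, adjusted p = 0.0227) and Aqp4 (-2.31 ± 0.42, adjusted p = 0.000173).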

How the data were processed

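Single cells sorted by scatter into well plates were sequenced with a modified CEL-Seq2 protocol. The authors deposited 1 table of UMI counts per arm, with genes in rows and wells in columns; per the submitters' processing notes, kallisto, bustools and Seurat 3.1.5 were used with GRCm38. The deposited natural log tables of normalised values were not used. Wells with at least 1000 UMIs were kept, and their counts were summed per plate, for plates with at least 20 cells. Sums were tested in R 4.3.3 with edgeR 4.0.16 (filterByExpr, TMM, quasi-likelihood test, Benjamini-Hochberg adjustment over all genes of a comparison, threshold 0.05) and limma 3.58.1; the fits were tested on simulated data. Tests between arms used the 9230 genes that both tables hold. Depth ran from 47976 to 1640523 UMIs per plate. Counting intervals (95%) and the floor of 3 counts cover counting error only. Cells were thinned to 1000 UMIs (seed 7) in Python 3.11.15. The alternatives tried were DESeq2 1.42.0, RLE size factors, no filter on low counts, all wells, wells with at least 2000 UMIs, thinned cells, no most abundant gene, a replicate block and each plate left out. Named genes were the 9 members, up to 4 called genes with the largest change of the list of other crypt stem and Wnt genes, and the 5 genes most like Lgr5 and Olfm4. The members and lists were chosen with earlier results of these data known. The 37 pairs of plates of 1 group differed by more than the counting error of UMIs (chi-square per gene 2.29 to 22.4). This measure leaves out the spread between cells, so it cannot show that plates are independent replicates. Each plate was counted as 1 replicate.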

Additional observations from a re-analysis of the deposited data

Results flagged for a closer look

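The change from day 0 differed between the arms (RANKL+CSRM617 minus RANKL, log2 scale, edgeR's interaction test) for 23 of 54 combinations of member and day, all lower with RANKL+CSRM617. Of all genes, 0.0570%, 1.14%, 1.64%, 0.354%, 1.04% and 4.24% were called lower on days 1 to 6. For Lgr5 the difference came to -1.82 on day 2, then -2.51, -4.31 and -6.17 on days 3 to 5. On day 6, with 0 UMIs in RANKL+CSRM617, the bound for Lgr5 was -5.53, taking 3 counts over the group as the floor, so the drop was that large or larger. For Slc12a2 it was -1.13, -0.98, -1.12, -1.33 and -1.98 on days 2 to 6.

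Olfm4 differed by -1.49, -2.97 and -3.99 on days 3, 5 and 6, and for Smoc2 it was -1.41, -1.47 and -3.52 on the same days. Cdca7 differed by -1.34 on day 2, -1.93 on day 5 and -3.65 on day 6, and Rgmb by -2.55 on day 5 and -2.59 on day 6. For Rgcc, with 0 UMIs in RANKL+CSRM617 on both days, the bound was -4.33 on day 5 and -2.48 on day 6. As given above, the calls of Slc12a2 on days 2 to 4 and of Cdca7, Rgmb and Smoc2 on day 5 were lost with a plate left out. That of Lgr5 on day 2 was lost with thinned cells.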

How the results depend on the processing

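With each cell thinned to 1000 UMIs, 12 member tests passed among the daily steps of RANKL+CSRM617, in place of 21; the other counts of calls stayed within 1.5 times under every alternative run. With 1 plate left out at a time the counts were 66 to 68 of 81 (67 with all plates) for RANKL days over day 0, 31 to 36 (34) for its daily steps, 23 to 32 of 48 (31) for RANKL+CSRM617 days over day 0, 16 to 21 (21) for its daily steps, 18 to 25 of 54 (23) for the difference in change and 28 to 36 of 63 (33) for the arms on the same day. Same-numbered plates did not deviate together (mean r -0.0004 with RANKL, -0.0171 with RANKL+CSRM617), so the numbers were not taken as pairs. With a replicate block the counts were 68, 34, 27, 18, 23 and 32 in the same order. These counts show how far the members' calls held, not whether the members stood out from other genes. On the RANKL days with a share given above, 20.4% to 38.3% of all genes were called against day 0. Over the daily steps of RANKL, 6.02% of all gene tests were called. No share over all gene tests is given for the other counts, so no weight is put on their size. In RANKL+CSRM617, plate 1 of days 0 and 1 and plate 2 of days 2 and 3 share the column tag L1. What the tag stands for is not given. The tags of this arm cross the plate numbers, so neither the check of same-numbered plates nor the replicate block can show an effect of the tag. The most abundant gene held 4.02% to 6.87% of the UMIs of those plates and 13.3% to 32.2% in the arm's other plates. No plate of days 4 to 6 has that tag. No fit took the tags into account, and their part in the changes of this arm and in the differences between the arms was not tested. Only uncalled values and 1 called value changed sign. For Olfm4 on day 2 of RANKL it was -0.00 with DESeq2 and ranged from -0.24 to 0.27 without a plate. Smoc2 on day 4 was -0.26 when thinned and -0.04 to 0.15 without a plate. Slc12a2 at day 7 over day 6 was -0.01 when thinned and -0.06 to 0.10 without a plate. Ascl2 on day 6 of RANKL+CSRM617 ranged from -0.63 to 1.02 without a plate, and its day 3 difference in change, -0.08 with all plates, ranged from -0.36 to 0.41 without a plate. The called value was Tnfrsf19 on day 3 of RANKL, -1.88 when thinned. The cause was not tested. Thinning, which leaves fewer UMIs, ended or turned more member calls (40 weaker of 211 tests) than any other single alternative apart from leaving out plates. Small plates, down to 24 cells, limit the RANKL+CSRM617 values of day 4.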
